A study of Rattus norvegicus with 6 samples.

Results

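Cytochrome P450 genes were examined in cultured BRL-3A cells, which come from rat liver and are an established cell line. They were taken as all gene models in the deposited table named Cyp, a number, 1 letter and a number. This gave 67 of 30957 models, under 63 symbols, and 14 of them held at least 60 counts summed over the 6 libraries. The libraries fell into 2 groups of 3: a group labelled NC, which the labels do not spell out, and a group labelled si-hnrnpa2b1, in which an siRNA against Hnrnpa2b1, an RNA-binding protein of the hnRNP family, was named. Per the labels' protocols, siRNAs went in with a lipid reagent and cells were harvested at 48 h; what the NC cells were given is not stated there. Because Hnrnpa2b1 mRNA was lower in the second group, its libraries are called knockdown libraries below. All 6 samples carry the same labels of cell line, Sprague-Dawley strain, liver tissue and a disease state of raised blood triglycerides. The question put to the P450 genes is whether their transcripts differed between the groups.

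Cytochrome P450 enzymes are haem proteins that insert an oxygen atom into their substrates, with electrons handed on by a reductase in the endoplasmic reticulum or by ferredoxin in mitochondria. In the liver, families 1 to 4 are best known for the oxidation of drugs, pollutants, ethanol and fatty acids, and the remaining families for steps in steroid, bile acid, retinoid and vitamin D metabolism. Hepatocytes hold most of the drug-metabolising forms, under control of nuclear receptors and of liver transcription factors such as Hnf4a.

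The upstream sequences of the 3 P450 genes of this name pattern that changed between the groups are shown because the genes differ in which promoter letters they carry. Each is the 250 bases before the RefSeq gene start in build GRCr8, read 5′ to 3′ on the gene's strand, at chr1:205269717-205269966 (plus strand) for Cyp2e1, chr4:118616177-118616426 (minus strand) for Cyp26b1 and chr6:21094315-21094564 (plus strand) for Cyp1b1. Capitals mark matches, on either strand, to TATAAA (the TATA box), GCGTG (the core bound by the aryl hydrocarbon receptor with Arnt), AGGTCA (a half-site of nuclear receptors) or GGGCGG (the GC box).
Cyp2e1: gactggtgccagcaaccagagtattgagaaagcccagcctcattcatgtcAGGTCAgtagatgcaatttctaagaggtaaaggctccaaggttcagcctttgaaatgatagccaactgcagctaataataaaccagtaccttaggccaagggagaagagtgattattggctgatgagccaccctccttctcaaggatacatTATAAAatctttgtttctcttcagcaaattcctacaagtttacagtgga
Cyp26b1: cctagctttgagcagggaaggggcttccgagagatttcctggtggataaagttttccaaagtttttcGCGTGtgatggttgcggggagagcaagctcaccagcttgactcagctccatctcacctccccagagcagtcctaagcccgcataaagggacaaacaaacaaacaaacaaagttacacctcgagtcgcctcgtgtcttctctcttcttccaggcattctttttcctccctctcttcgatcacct
Cyp1b1: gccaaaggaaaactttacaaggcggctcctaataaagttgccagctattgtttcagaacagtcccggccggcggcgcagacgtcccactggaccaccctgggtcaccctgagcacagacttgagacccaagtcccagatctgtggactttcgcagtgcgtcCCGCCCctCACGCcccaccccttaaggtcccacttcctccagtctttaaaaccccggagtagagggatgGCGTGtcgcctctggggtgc

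The Cyp2e1 window held 1 TATAAA and 1 AGGTCA, had 42.8% G and C, and contained 0 CG dinucleotides. The Cyp1b1 window held 2 GCGTG cores and 1 GGGCGG, with 59.2% G and C and 13 CG dinucleotides. The Cyp26b1 window held 1 GCGTG, with 50.4% G and C and 9 CG dinucleotides. None of the matches in these 3 windows overlapped another. Among all 33469 windows of the same length in the table, 12.9% held TATAAA, 25.9% GCGTG, 14.1% AGGTCA and 30.5% GGGCGG, and the medians were 51.2% G and C and 5 CG dinucleotides. Of the 14 P450 genes with 60 or more counts, 11 had an entry in this table; Cyp4v3, Cyp4f17 and Cyp7b1 had none. TATAAA occurred in 2 of the 11 windows, those of Cyp2e1 and the vitamin D enzyme Cyp27b1.

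Totals per library lay between 13374412 and 15224108 counts, and the counts of the 67 P450 models together between 7650 and 8044. Hnrnpa2b1 itself stood at 954, 1065 and 1025 CPM in NC, against 662, 585 and 574 CPM in knockdown libraries, a log2 fold change of -0.74 ± 0.06 (SE, edgeR adjusted p = 2.3e-06). CPM are counts scaled for library size with the trimmed mean of M-values, and log2 fold changes are knockdown over NC. Adjusted p-values come from the quasi-likelihood test of edgeR, corrected over 12261 genes by the Benjamini-Hochberg method. The words rose and fell are used only where this adjusted p was below 0.05. Separate cultures are not stated for the replicates, and the p-values then reflect the spread of these libraries alone, which may be technical. Of 10 hepatocyte markers 6 were listed at 0, Alb, Ttr, Apob and Hnf4a among them, and 3 more held fewer than 60 counts; the tenth, Tf, held 2588. Of 8 stellate and fibroblast markers 2 were listed at 0, Col1a2 and the stellate marker Lrat, and the other 6 held from 2490 (Pdgfrb) to 1019801 (Col1a1) counts.

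A value of 0 in this table is a listing and not proof of absence. Of 93 models with ribosomal protein symbols 11 were listed at 0 in every library, among them the only model of Rps6 and of Rpl8, which all cells use; Col1a2 was listed at 0 as well. No upper limit is therefore given for P450 genes listed at 0, and they are called listed at 0 below. These check genes were chosen after their values were seen.

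Most P450 models of the drug-metabolising families were listed at 0 in all 6 libraries. Of 50 models in families 1 to 4, 8 held 60 or more counts, 11 held 1 to 59 and 31 (62.0%) were listed at 0. Of 17 models in the other families, 6 held 60 or more counts, 7 held 1 to 59 and 4 (23.5%) were listed at 0. Among all 30957 models, 45.5% were listed at 0. The hepatic forms Cyp1a2, Cyp2b1, Cyp2b2, Cyp2c7, Cyp2d2 and Cyp3a2 were all listed at 0, as was Cyp1a1, the classical target of the aryl hydrocarbon receptor. The model named Cyp2b1 is placed on chromosome 7, apart from the other CYP2B models on chromosome 1, so its listing may not stand for that gene. All 4 models of family 3 that match the name pattern were listed at 0; members of this family oxidise a wide range of drugs. Cyp3a23/3a1, 1 of 6 models named Cyp and a number that the pattern leaves out, was also listed at 0. So were Cyp7a1, the rate-limiting enzyme of bile acid synthesis, Cyp8b1, which directs that pathway to cholic acid, and Cyp17a1 of steroid synthesis. The 4 symbols that occur on more than 1 model, Cyp2c13, Cyp3a9, Cyp4a2 and Cyp4f37, were listed at 0 on both.

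**Figure D1:**
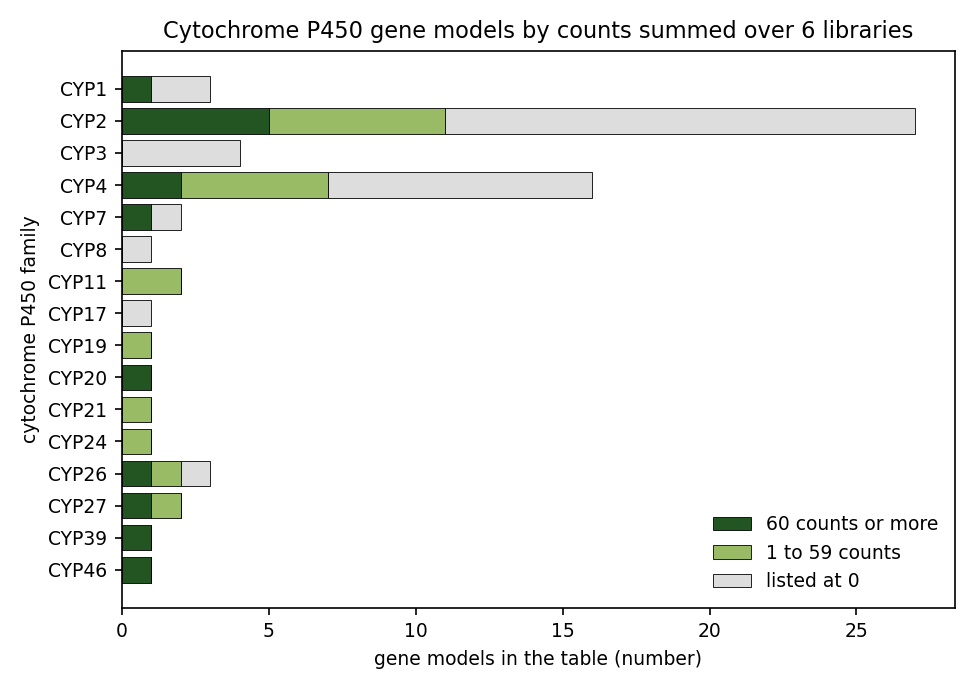
Number of cytochrome P450 gene models in each family (horizontal axis), split by the counts summed over the 6 libraries: 60 or more, 1 to 59, or listed at 0. Family 2 had 27 models, 5 of them with 60 or more counts and 16 listed at 0, and family 4 had 16 models, 2 with 60 or more counts and 9 listed at 0.

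In the build of the deposited table, Rnor_6.0, P450 models less than 1 Mb apart formed 9 groups, and 2 of the 9 held a gene with 60 or more counts. On chromosome 1 the group from 82595211 to 83969559 had 9 models of the CYP2A, 2B, 2F, 2G, 2S and 2T subfamilies. Its edge gene Cyp2s1 held 186 counts, Cyp2t1 at the opposite edge held 36, and the 7 models between them were listed at 0. The Cyp2t1 model overlaps that of Egln2, which held 2930 counts, so its few reads may belong to either. On chromosome 7 the CYP4F group from 13881583 to 15190796 had 8 models with 268 counts in all, of which Cyp4f17 held 249. The CYP2C group on chromosome 1 (257970345 to 259287684, 5 models) held 3 counts, the CYP4A, 4B and 4X group on chromosome 5 (133929532 to 134526089, 6 models) 12 counts and the CYP2D group on chromosome 7 (123599266 to 123655896, 4 models) 2 counts. Both CYP3A groups on chromosome 12 were listed at 0. Reads shared by near-identical genes of such groups can be assigned to any of them, and the rule used for counting them is not known here.

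Cyp1b1 had the highest FPKM of the 67 models; Cyp51, which the name pattern leaves out, stood higher at 85.9 ± 6.73 FPKM in NC and 65.8 ± 3.95 FPKM in knockdown libraries. Cyp1b1 encodes an enzyme of mostly extrahepatic tissues that oxidises oestradiol and polycyclic hydrocarbons and is a target of the aryl hydrocarbon receptor (ENSRNOG00000040287, chromosome 6, 2307808 to 2316722). Its level per length was 67.9 ± 4.90 FPKM (SD, n = 3) in NC and 58.6 ± 3.07 FPKM in knockdown libraries, above 93.0% of all genes with a count. Cyp1b1 made up 60.6%, 64.8% and 63.1% of the FPKM summed over the 67 models, Cyp51 not included, in the NC libraries and 51.9%, 54.2% and 53.6% in the knockdown libraries. The share does not measure Cyp1b1 alone. The summed FPKM of the other models was 42.1, 40.0 and 38.1 in NC and 51.2, 50.1 and 53.0 in knockdown libraries.

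The next P450 genes by FPKM were Cyp20a1, an orphan enzyme without an agreed substrate, Cyp2e1, which oxidises ethanol and paracetamol, and Cyp4v3, whose human counterpart hydroxylates fatty acids. In the NC libraries their levels were 16.5 ± 1.17, 7.15 ± 1.54 and 7.94 ± 0.675 FPKM. Cyp2u1, a fatty acid hydroxylase, followed at 3.03 ± 0.401 FPKM and Cyp2r1, which carries out the liver step of vitamin D activation, at 1.11 ± 0.231 FPKM. In NC, neighbours in this order overlapped only for Cyp4v3 and Cyp2e1 among these 6 genes. The other 8 genes, from Cyp2s1 at 0.585 to Cyp39a1 at 0.330 FPKM, each overlapped the next in the order. In the knockdown libraries Cyp2e1 stood at 14.9 ± 1.33 FPKM, above Cyp4v3 at 7.68 ± 0.274 FPKM with no overlap.

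**Figure D2:**
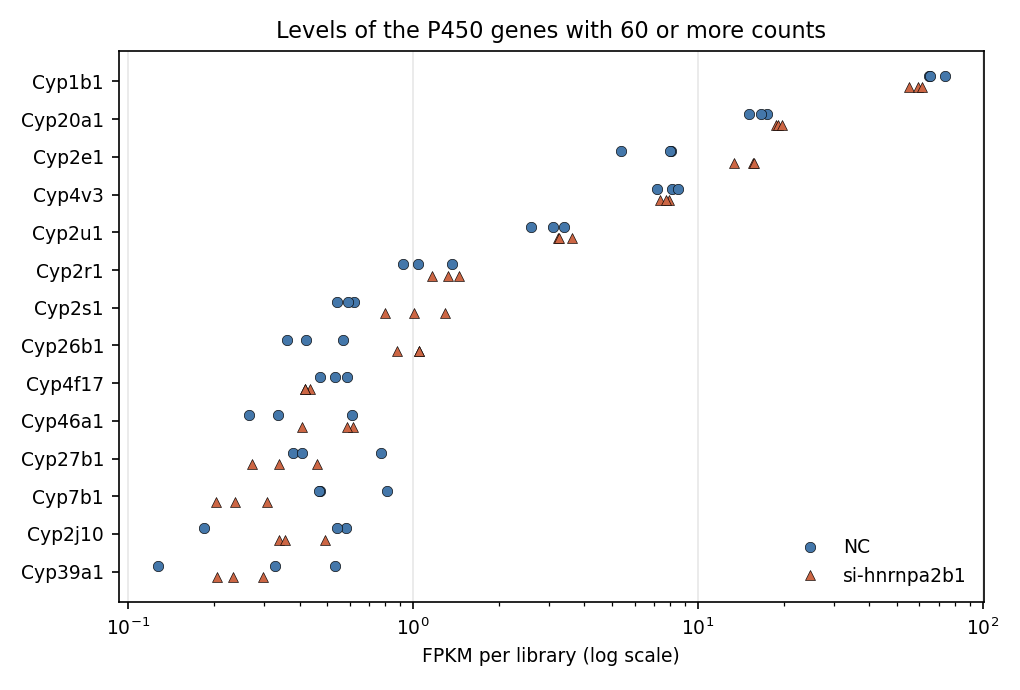
FPKM of the 14 P450 genes with 60 or more counts on a log scale, with 1 symbol per library (circles NC, triangles si-hnrnpa2b1, 3 libraries each). Cyp1b1 lay between 55.3 and 73.6 FPKM in all libraries, while 8 genes had NC means below 1 FPKM.

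Against NC, 2 of the 14 tested P450 genes that match the name pattern rose, 1 fell and 11 did not pass the test in the knockdown. Cyp51, which the pattern leaves out, also fell and is given below. All 14 genes with 60 or more counts passed the filter on low counts, and 53 models did not. Of all tested genes 5.30% were called, 2.36% upward and 2.94% downward. The median log2 fold change of the 14 tested P450 genes was 0.06, against 0.00 for all tested genes, with 7 above 0 and 7 below. The groups did not overlap in 7 of the 14 genes, against 23.4% of all tested genes. The filter leaves out most members, so these counts describe the 14 genes and not the 67.

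Cyp2e1 rose 2.09-fold (ENSRNOG00000012458, chromosome 1, 213511874 to 213535542). CPM in NC were 20.2, 13.7 and 20.1, and knockdown libraries stood at 39.8, 33.6 and 39.6, from 181 to 600 counts per library. Every knockdown value lay above every NC value, and NC replicate 2 was the lowest of all. The log2 fold change was 1.06 ± 0.12 (SE), with a 95% interval of 1.74- to 2.50-fold and an edgeR adjusted p of 8.4e-05. Without NC replicate 2 it was 0.90.

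Cyp26b1, which clears retinoic acid by hydroxylation, rose 2.20-fold at a much lower level (ENSRNOG00000015076, chromosome 4, 116261796 to 116278615). It had 27, 22 and 38 counts in the NC and 73, 59 and 70 counts in the knockdown libraries, or 1.91, 1.66 and 2.56 against 4.85, 4.003 and 4.75 CPM. The groups did not overlap. The log2 fold change was 1.14 ± 0.22, with a 95% interval of 1.58- to 3.07-fold (edgeR adjusted p = 0.0066). Its relatives gave no second measurement, since Cyp26a1 held 3 counts in all and Cyp26c1 was listed at 0.

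Cyp1b1 fell by 13.6%, the smallest of the 3 changes. The NC libraries had 429, 496 and 432 CPM and the knockdown libraries 372, 393 and 407 CPM. The groups did not overlap, but the gap between them was narrower than the distance from NC replicate 2 to the other NC libraries. The log2 fold change was -0.21 ± 0.06 (edgeR adjusted p = 0.0399). The call was lost by limma on FPKM (adjusted p = 0.11) and without NC replicate 2 (edgeR adjusted p = 0.098) or knockdown replicate 1, 2 or 3 (0.15, 0.13 and 0.067); over all alternatives the adjusted p ranged from 0.017 to 0.15.

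**Figure D3:**
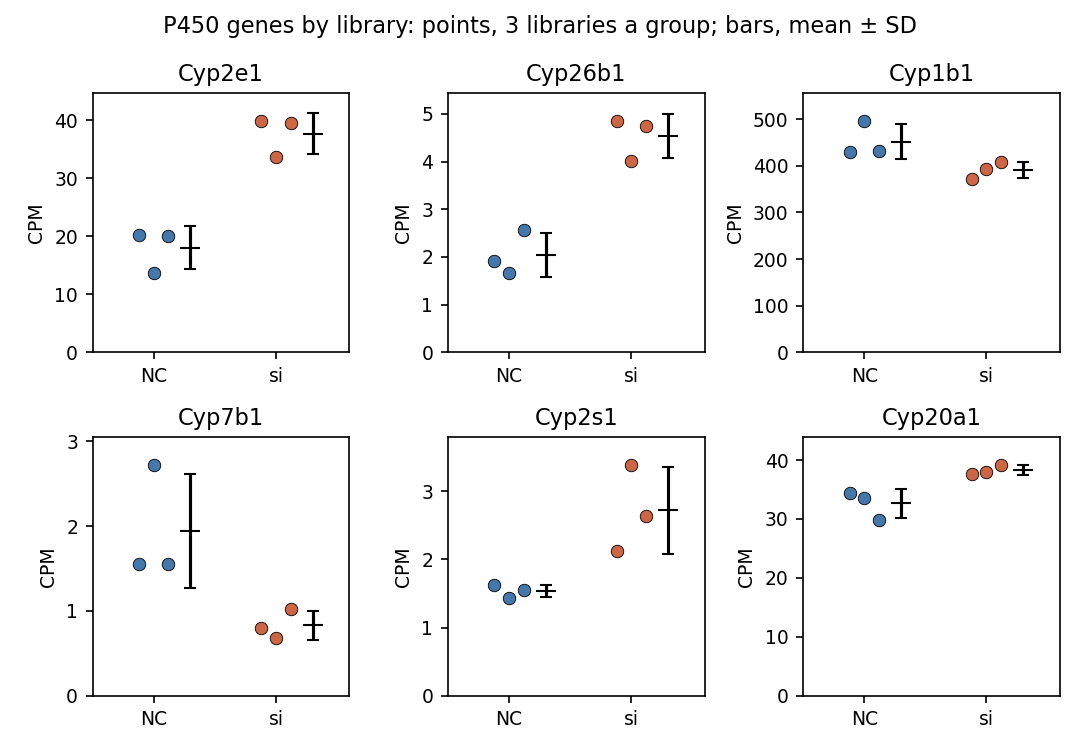
CPM per library (points, 3 per group) with the mean and SD beside them for 6 P450 genes; si stands for si-hnrnpa2b1. Cyp2e1 and Cyp26b1 rose, Cyp1b1 fell, and Cyp7b1, Cyp2s1 and Cyp20a1 did not pass the test although their groups did not overlap.

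The other 4 genes without overlap between the groups missed the threshold. Cyp7b1, which hydroxylates oxysterols in the alternative route to bile acids, stood at 1.55, 2.72 and 1.55 CPM in NC, against 0.797, 0.678 and 1.02 CPM in knockdown libraries. Its estimate was the most negative of the P450 genes, a log2 fold change of -1.21 ± 0.35 with a 95% interval of -1.95 to -0.46, resting on 10 to 36 counts per library (edgeR adjusted p = 0.060); without NC replicate 2 it was -0.89. Cyp2s1, a form inducible through the aryl hydrocarbon receptor in epithelia, stood at 1.62, 1.44 and 1.55 CPM in NC, against 2.12, 3.39 and 2.65 CPM in knockdown libraries. Its log2 fold change was 0.82 ± 0.27 (edgeR adjusted p = 0.10). Cyp20a1 had 34.4, 33.6 and 29.9 CPM against 37.6, 37.9 and 39.2 CPM, for a difference of 0.23 ± 0.08 in log2 (edgeR adjusted p = 0.10). Cyp4f17 had 2.82 to 3.50 CPM in NC and 2.51 to 2.66 CPM in knockdown libraries (log2 -0.32 ± 0.22, edgeR adjusted p = 0.47).

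For the remaining 7 genes the groups overlapped, with widths of the interval that differed by depth. Cyp4v3 was the tightest: 29.2 ± 2.71 CPM in NC and 28.3 ± 0.82 CPM in knockdown libraries, with a 95% interval of 0.855- to 1.10-fold (edgeR adjusted p = 0.86). Cyp2u1 had 10.3 ± 1.37 and 11.5 ± 0.698 CPM (0.925- to 1.35-fold, edgeR adjusted p = 0.56). Differences of this size were not detectable in the genes with few counts. Cyp2r1 had 1.88 ± 0.413 and 2.22 ± 0.226 CPM, with an interval of 0.799- to 1.76-fold. Cyp27b1, which completes the active form of vitamin D, had 1.56 ± 0.680 and 1.08 ± 0.294 CPM, with an interval of 0.405- to 1.20-fold.

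Cyp46a1, the cholesterol hydroxylase best known from neurons, had 1.08 ± 0.478 and 1.44 ± 0.307 CPM (0.773- to 2.25-fold). Cyp39a1, which acts on the oxysterol that Cyp46a1 makes, had 1.05 ± 0.645 and 0.787 ± 0.147 CPM (0.384- to 1.48-fold). Cyp2j10, of a subfamily whose best known members epoxidise arachidonic acid, had 1.92 ± 0.968 and 1.75 ± 0.385 CPM, and NC replicate 3 at 0.808 CPM lay apart from 2.54 and 2.42 CPM in the other NC libraries. Its interval was 0.536- to 1.57-fold. From Cyp2r1 to Cyp2j10, the edgeR adjusted p of the 5 genes with few counts lay between 0.50 and 0.91.

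**Figure D4:**
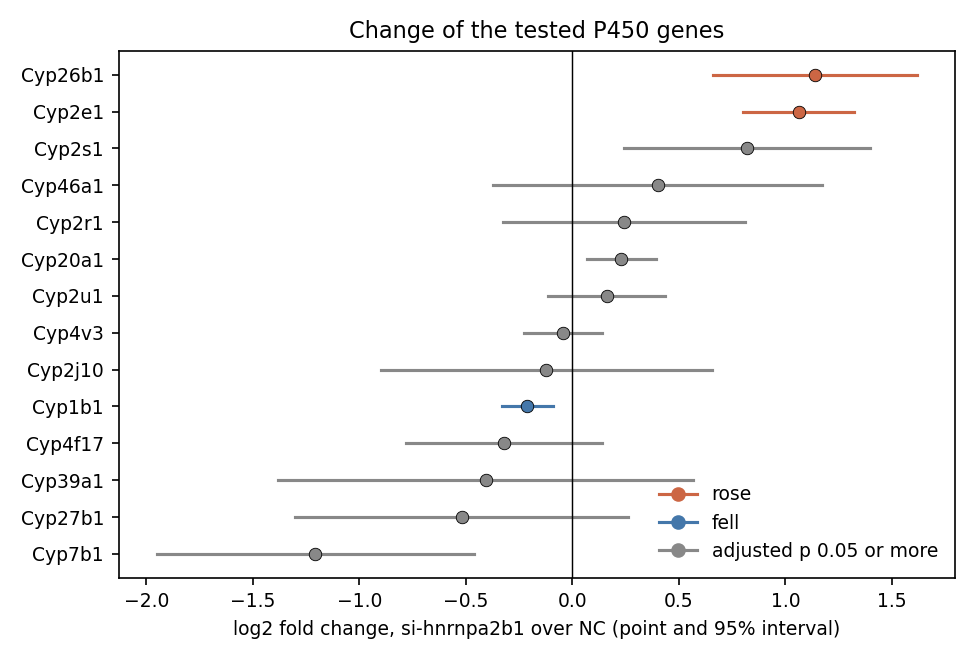
Log2 fold change of si-hnrnpa2b1 over NC for the 14 tested P450 genes, with the 95% interval of the edgeR fit. Cyp26b1 (1.14) and Cyp2e1 (1.06) rose, Cyp1b1 (-0.21) fell, and Cyp7b1 (-1.21) had the widest distance from 0 among the genes that did not pass.

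The 18 models with 1 to 59 counts were not tested. Cyp2t1 held 36 counts, Cyp4f40 14, Cyp21a1 and Cyp27a1 12 each, Cyp4b1 10, and the remaining 13 at most 5. The Cyp21a1 model overlaps models holding 6676 counts. Cyp4b1, a fatty acid and xenobiotic oxidase named here after its values were seen, had 0 counts in the 3 NC and 5, 2 and 3 counts in the knockdown libraries; in a fit without the filter its edgeR adjusted p was 0.15. In that fit 32 P450 models were tested and 3 passed, against 299 genes upward and 360 downward of all 16858 tested there.

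Genes that P450 enzymes work with, and 3 P450 enzymes outside the name pattern, were taken from 7 lists. Of 80 tested genes, these 3 enzymes included, 0 rose and 6 fell, against 2.36% and 2.94% of all tested genes. The P450 enzyme Cyp51 was among the 6. Unadjusted edgeR p-values below 0.05 were found for 6 of the 80 genes upward and 13 downward. Over all 12261 tested genes they were found for 1077 upward and 1172 downward. DESeq2 called 0 of the 80 upward and 6 downward. The median log2 fold change of the 80 genes was 0.00. Among 10 electron donors edgeR and DESeq2 each called 0, with 1 unadjusted p below 0.05. Por, the reductase that feeds the microsomal enzymes, stood at 79.4, 95.6 and 89.2 CPM in NC, against 84.8, 89.3 and 89.5 CPM in knockdown libraries, with a 95% interval of 0.904- to 1.10-fold. Among 12 genes of haem synthesis and breakdown both tools again called 0, with 2 unadjusted p-values below 0.05; Alas1, which opens haem synthesis, had 17.1 ± 1.99 and 17.3 ± 0.888 CPM (edgeR adjusted p = 0.96).

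Of 21 tested receptors and regulators, against 2.94% of all tested genes, 1 fell. This was Ahr, the aryl hydrocarbon receptor (ENSRNOG00000004342, chromosome 6, 54963990 to 55001464), which stood at 193, 177 and 183 CPM in NC, against 150.5, 149.6 and 153 CPM in knockdown libraries. The groups did not overlap, and the log2 fold change was -0.29 ± 0.05 (edgeR adjusted p = 0.0020). Its target Cyp1b1 fell as given above, a call that was lost in 7 of 15 alternative fits. Cyp2s1 had a positive estimate that did not pass, and a link of either gene to Ahr was not tested. Rxra, the partner of many nuclear receptors, had 20.7 ± 1.08 and 16.3 ± 0.886 CPM (edgeR adjusted p = 0.054). The xenobiotic receptor genes Nr1i2 and Nr1i3 held 1 and 0 counts, and Hnf4a was listed at 0.

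Of 17 tested conjugating and other detoxifying enzymes 0 rose and 2 fell, against 2.36% and 2.94% of all tested genes. Mgst1, a microsomal glutathione transferase, fell with a log2 change of -0.21 ± 0.04, with 338 ± 2.82 CPM in NC and 292 ± 6.40 CPM in the knockdown (edgeR adjusted p = 0.0068), and without knockdown replicate 2 its adjusted p was 0.053. Fmo1, a flavin monooxygenase of drug oxidation, fell with a log2 change of -1.32 ± 0.28, with 2.88 ± 0.587 CPM in NC and 1.15 ± 0.147 CPM in the knockdown (edgeR adjusted p = 0.011), and without knockdown replicate 1 its adjusted p was 0.053. Beside Cyp26b1, the 7 tested genes of retinoid handling gave 0 calls by edgeR and by DESeq2, where edgeR called 5.30% of all tested genes. There was 1 unadjusted edgeR p below 0.05, downward. Their log2 fold changes ran from -1.32 to 0.18, and the lowest edgeR adjusted p was 0.11.

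Of 10 tested steroid and bile acid partners 0 rose and 2 fell, against 2.36% and 2.94% of all tested genes. Hsd17b7, an enzyme of sterol synthesis and oestradiol formation, fell with a log2 change of -0.64 ± 0.09, with 27.7 ± 1.73 CPM in NC and 17.8 ± 0.350 CPM in the knockdown (edgeR adjusted p = 5.1e-04). Hsd3b7, which acts after Cyp7b1 in bile acid synthesis, fell with a log2 change of -0.29 ± 0.08, with 34.3 ± 0.820 CPM in NC and 28.0 ± 1.17 CPM in the knockdown (edgeR adjusted p = 0.034), and the call was lost without any 1 of the 6 libraries (edgeR adjusted p from 0.063 to 0.14). In a list of 3 P450 enzymes outside the pattern, the sterol demethylase Cyp51 fell by 23.2% (log2 -0.38 ± 0.06, edgeR adjusted p = 8.3e-04). Ptgis and Tbxas1, which make prostacyclin and thromboxane, did not pass (edgeR adjusted p = 0.14 and 0.61). Of 6 tested markers of stellate cells and fibroblasts, Acta2 and Des rose, against 2.36% of all tested genes. Col1a1, Col3a1, Pdgfrb and Vim did not pass (edgeR adjusted p = 0.97, 0.81, 0.99 and 0.091). For Acta2, Des and Vim the groups did not overlap, with knockdown libraries higher, against 23.4% of all tested genes without overlap in either direction. Vim had 1287 to 1350 CPM in NC and 1398 to 1479 CPM in knockdown libraries. The summed level of these markers overlapped between the groups, at 15192 to 15573 CPM in NC and 15093 to 16054 CPM in knockdown libraries. This sum was mostly Col1a1 (mean 11781 CPM in NC and 11729 CPM in knockdown libraries), so it does not describe Acta2, Des or Vim. The part of such marker changes in the P450 results was not tested. A different mix of cells and a different amount of RNA per cell cannot be told apart in these libraries.

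**Figure D5:**
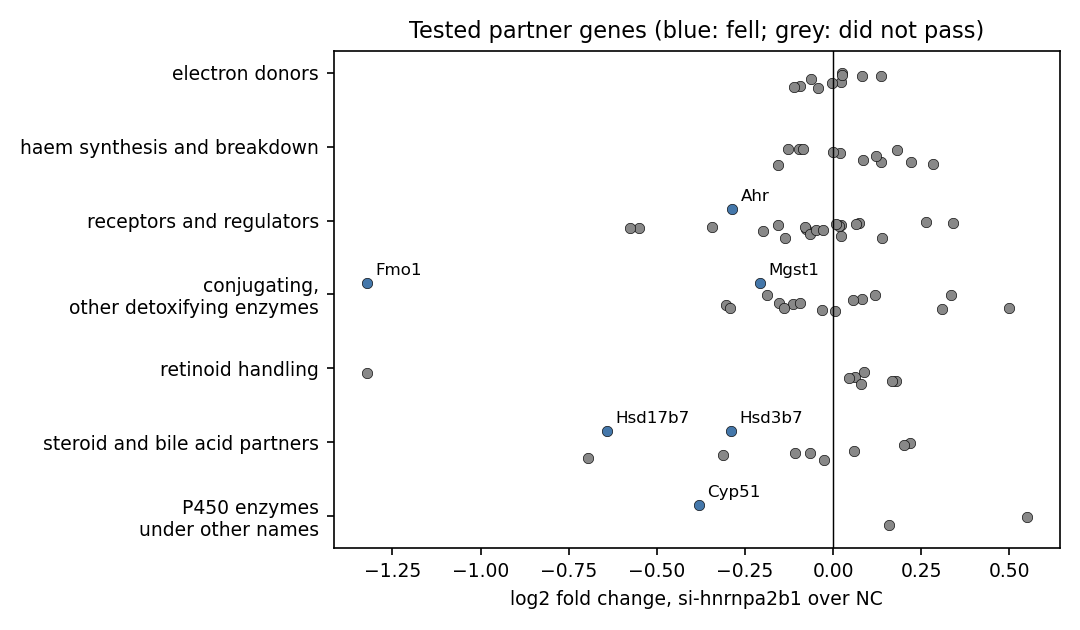
Log2 fold change of the 80 tested genes in 7 lists, with 1 point per gene model. Of these lists 6 hold partner genes of the P450 enzymes and 1 holds 3 P450 enzymes outside the name pattern, Cyp51 among them. Vertical offsets only separate points. The 6 named genes fell, from Fmo1 at -1.32 to Mgst1 at -0.21, and 0 rose.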

How the data were processed

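Whole-number counts and FPKM values per gene were deposited by the authors for 6 libraries, 1 column each, per the file headers. FPKM deposited by the authors equal the count per length and column total to within 0.062%. The length of each gene was worked out from the same counts and FPKM, so this covers 1 length per gene across libraries and not the true length. HISAT2 2.0.4, StringTie 1.3.0 and edgeR with build Rnor_6.0 are named, without roles, per the submitters' processing notes; which annotation, counting program and strand setting were used is not known here. Columns were matched to samples by title, with 0 left unused.

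The test of the counts used edgeR 4.0.16 (R 4.3.3): filterByExpr (minimum count 10, total 15), TMM scaling, a two-sided quasi-likelihood F-test without covariates and Benjamini-Hochberg adjustment over 12261 genes. The SE is the log2 fold change over the root of F, and 95% intervals use the fit's degrees of freedom; both cover the spread between libraries. The fit was run on simulated counts with the same spread for every gene and with larger changes than that of Cyp1b1, so small changes were not covered. Alternatives were DESeq2 1.42.0, limma 3.58.1 on log2(FPKM + 1) and log2(FPKM + 0.1), other scalings and filters, each library left out, and the replicate block. Within groups, library pairs differed by more than sampling noise (chi-square per degree of freedom 2.91 to 6.00).

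Every P450 gene with 60 or more counts is named; of each partner list, Por, Ahr, Nr1i2, Nr1i3, Hnf4a, Alas1 and up to 4 called genes. Of 112 list entries 108 matched by symbol, 1 by synonym and 3 did not. A few others were chosen after seeing values. The members and lists were chosen with earlier results of these data known. Promoters are from RefSeq, build GRCr8.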

Additional observations from a re-analysis of the deposited data

How the results depend on the processing

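The rise of Cyp2e1 and of Cyp26b1 passed under every alternative run, with log2 fold changes of 0.90 to 1.15 and 0.46 to 1.34; the lowest for Cyp26b1 was by limma on log2(FPKM + 1). The number of P450 genes that fell was 1, and 0 by limma on log2(FPKM + 1) or log2(FPKM + 0.1), with the replicate block, and in 4 of the 6 fits that left out a library (range 0 to 1); the cause was not tested. With the replicate block the edgeR adjusted p was 0.051 for Cyp1b1 and 0.064 for Hsd3b7, and no other P450 or partner call changed. Same-numbered libraries did not deviate together (correlations of 0.03, -0.01 and 0.04 for numbers 1, 2 and 3), so the numbers were not taken as pairs. Of 206 log2 fold changes recomputed, 195 kept direction and side of the threshold, 7 lost the Cyp1b1 call and 4 turned sign without passing in any fit: Cyp4v3 without NC replicate 2 (0.018), Cyp2j10 without NC replicate 1 or 2 (0.14 and 0.07) and Cyp39a1 without NC replicate 1 (0.13). With 1 library left out these genes ranged from -0.11 to 0.018, -0.50 to 0.14 and -0.81 to 0.13. Called genes over the whole table were 289 up and 361 down; limma on log2(FPKM + 1) gave 157 and 186, on log2(FPKM + 0.1) 160 and 190, and leaving out a library 153 to 294 up and 217 to 319 down. Genes of the partner lists that rose were 0, or 1 without NC replicate 2 (Hsd11b1) or NC replicate 3 (Cpox), a range of 0 to 1. Those that fell, Cyp51 counted with them, ranged from 4 to 6. Ch25h was gained without NC replicate 3 (edgeR adjusted p = 0.0098) and Gstm1 without si-hnrnpa2b1 replicate 1 (0.021). Floors of 30 and 120 counts gave 15 and 10 P450 genes in place of 14. Depth limits the 7 tested genes with 186 counts or fewer, whose 95% intervals span more than 2-fold.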
